A study of Mus musculus with 20 samples.

Results

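The 10 core circadian clock genes examined here were Arntl, Clock, Npas2, Nr1d1, Nr1d2, Per1, Per2, Per3, Cry1 and Dbp. They were chosen by symbol and each symbol matched 1 Ensembl gene identifier among the 55573 identifiers counted in mouse liver. All 10 passed the filter on low counts, which left 13783 genes for testing. Total RNA from liver was depleted of ribosomal RNA and sequenced with strand-specific libraries from 5 mice in each of 4 groups. The groups were Titan mice, a line selected for high body weight and size, and unselected control mice, at 11 weeks and at 19–21 weeks of age. The lines are not inbred, the tissue was whole liver, and both lines shared a 12:12 h light-dark cycle and free access to feed. The hour of sampling and the feeding state of each mouse at that time are not given in the sources used here.

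The circadian clock of a cell is a transcriptional loop that runs with a period of about a day. ARNTL (also called BMAL1) pairs with CLOCK or NPAS2 and activates genes that carry E-boxes, among them the Per and Cry genes, Nr1d1, Nr1d2 and Dbp. PER and CRY proteins then repress this pair, NR1D1 and NR1D2 (REV-ERB) repress Arntl, Npas2, Clock and Cry1 through ROR elements, and DBP activates genes with D-boxes such as the Per genes. In liver Arntl and Npas2 peak at nearly the opposite time of day from Dbp, Nr1d1 and Per3. The relative levels of these genes in 1 sample therefore depend in part on the phase of the loop at that moment. Phase itself was not measured here.

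Promoter windows of 300 bases, reaching from 250 bases before to 50 bases after an annotated start, were available from RefSeq (GRCm38.p6) for 9 of the 10 genes in 13 windows. They were searched on both strands for the E-box CACGTG, the E-prime box CACGTT, the D-box TTANGTAA and the ROR element TAGGTCA, which did not overlap one another in these windows. Of all 32851 windows in the RefSeq table, 7.15% held the E-box, 4.68% the E-prime box, 2.32% the D-box and 2.61% the ROR element. Among the 13 windows of the clock genes 2 held the E-box, 2 the E-prime box, 1 the D-box and 1 the ROR element, and such a match describes the letters and not a bound site. Those of Per3, Cry1 and Nr1d1, and the second window of Arntl, are shown because these genes carried the within-group pattern described below and each holds a match, in capitals. Per3 (chr4:151044616-151044915, minus strand) holds 2 D-boxes that begin 205 and 158 bases before the start. Cry1 (chr10:85185005-85185304, minus strand) holds an E-prime box that begins 79 bases before the start and an E-box that begins 60 bases before it. Nr1d1 (chr11:98775328-98775627, minus strand) holds an E-prime box that begins 28 bases before the start, and Arntl (chr7:113207261-113207560, plus strand) a ROR element that begins at base 31 of the transcript. Of the remaining windows, 1 of the 2 windows of Per1 held an E-box and none of the 4 motifs was found in those of Dbp, Npas2, Nr1d2 and Clock.
Per3: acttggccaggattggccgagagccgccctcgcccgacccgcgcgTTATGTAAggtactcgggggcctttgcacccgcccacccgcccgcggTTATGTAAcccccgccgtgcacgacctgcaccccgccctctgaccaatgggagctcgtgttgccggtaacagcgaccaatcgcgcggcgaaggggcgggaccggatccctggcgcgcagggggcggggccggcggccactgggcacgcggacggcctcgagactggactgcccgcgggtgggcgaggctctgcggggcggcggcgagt
Cry1: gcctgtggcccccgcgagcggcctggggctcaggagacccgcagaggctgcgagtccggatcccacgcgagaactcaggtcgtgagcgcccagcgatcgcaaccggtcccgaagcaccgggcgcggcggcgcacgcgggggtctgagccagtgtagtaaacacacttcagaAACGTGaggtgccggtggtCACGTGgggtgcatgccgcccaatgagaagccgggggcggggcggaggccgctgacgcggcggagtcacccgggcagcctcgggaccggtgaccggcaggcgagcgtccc
Nr1d1: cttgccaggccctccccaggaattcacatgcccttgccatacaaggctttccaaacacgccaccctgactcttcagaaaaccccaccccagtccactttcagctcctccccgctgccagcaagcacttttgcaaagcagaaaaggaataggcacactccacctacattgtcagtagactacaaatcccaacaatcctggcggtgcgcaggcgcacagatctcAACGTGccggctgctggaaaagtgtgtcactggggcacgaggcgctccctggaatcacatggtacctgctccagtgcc
Arntl: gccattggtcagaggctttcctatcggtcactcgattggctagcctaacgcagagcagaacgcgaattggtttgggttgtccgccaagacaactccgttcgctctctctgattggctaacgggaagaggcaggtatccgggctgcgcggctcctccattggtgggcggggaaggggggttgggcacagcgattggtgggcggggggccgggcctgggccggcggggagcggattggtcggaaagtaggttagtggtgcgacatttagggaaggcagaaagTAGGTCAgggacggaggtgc

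The libraries held 6794935 to 23295028 reads on genes, and 96.83% to 97.55% of the reads that could be given a strand lay on the strand the library keeps. Values below are CPM, the counts scaled for library size with TMM factors. The defining hepatocyte markers were abundant in every group, with a summed level of 63323 to 97839 CPM over Alb, Apoa1, Ttr, Cps1 and Hnf4a. Neutrophil and adipocyte markers summed to at most 1.52 and 0.42 CPM. The expression of clock genes in a bulk sample cannot tell a change in each cell from a change in the share of cells.

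The transcripts differed in abundance. Per kilobase of annotated exons, median levels over the 20 mice ran from 11.1 CPM per kilobase for Nr1d1 and 10.9 for Clock through 7.93 for Nr1d2, 6.29 for Cry1, 4.76 for Arntl, 3.10 for Per2, 1.997 for Npas2 and 1.12 for Per1 to 0.841 for Dbp and 0.803 for Per3. Neighbours in this order overlapped widely across mice: Nr1d1 ranged from 1.59 to 44.7 CPM per kilobase and Clock from 9.45 to 13.3. Dbp spanned 0.224 to 18.1 CPM per kilobase, so that its place in the order depended on the mouse.

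Dbp, a transcription factor of the PAR bZIP family and a direct target of the loop, showed the widest range of all 10 genes. At 11 weeks the 5 control mice had 7.34, 7.16, 0.792, 0.671 and 1.10 CPM and the 5 Titan mice 2.07, 1.72, 1.39, 2.48 and 3.66 CPM (replicates 1 to 5 in order, as in all lists below). At 19–21 weeks control mice had 0.858, 42.1, 54.2, 25.6 and 5.29 CPM and Titan mice 9.92, 46.8, 2.55, 1.27 and 1.61 CPM. Control replicates 2, 3 and 4 and Titan replicates 1 and 2 of the older mice stood above every 11-week-old mouse, whereas older control replicate 1 lay among the lowest mice of the study. The highest mouse had 80.8 times the level of the lowest, and the raw counts behind these values ran from 10 to 1005 reads.

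Nr1d1, which encodes the repressor REV-ERBα, followed Dbp from mouse to mouse. Control mice had 83.6, 63.9, 17.1, 12.4 and 4.90 CPM at 11 weeks and 21.7, 138, 97.5, 119.8 and 56.0 CPM at 19–21 weeks. Titan mice had 31.8, 20.3, 22.3, 36.6 and 40.6 CPM at 11 weeks and 42.5, 102.2, 19.9, 20.1 and 9.43 CPM at 19–21 weeks. The older control replicates with the highest Dbp were also the 3 highest of their group for Nr1d1, and the same Titan replicate 2 led its group. Its paralog Nr1d2 ranged more narrowly, from 17.8 to 103.5 CPM, with the lowest value in older Titan replicate 5 and the highest in older control replicate 3.

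Per3, a period gene that is dispensable for the loop itself, had 10.8, 9.16, 3.96, 2.01 and 4.55 CPM in control and 7.44, 4.06, 4.96, 8.24 and 7.98 CPM in Titan mice at 11 weeks. At 19–21 weeks the values were 2.92, 30.1, 33.2, 26.9 and 7.05 CPM in control and 19.2, 30.4, 8.39, 4.30 and 6.88 CPM in Titan mice. The order of the mice was nearly that of Dbp, with older control replicates 2, 3 and 4 and older Titan replicates 1 and 2 above all others.

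The genes of the activating arm ran the other way. Arntl, the partner without which the loop stops, had 40.7, 33.2, 42.5, 43.7 and 41.3 CPM in control and 31.7, 34.7, 36.6, 35.3 and 29.1 CPM in Titan mice at 11 weeks. In older mice it had 40.4, 18.2, 10.04, 22.5 and 39.6 CPM in control and 23.7, 14.3, 36.2, 38.0 and 39.0 CPM in Titan mice. The 5 lowest values of the study thus belonged to the 5 older mice with high Per3. Npas2, which can take the place of Clock, had 8.52, 7.997, 15.6, 19.8 and 11.2 CPM in control and 7.37, 22.7, 15.7, 11.7 and 10.04 CPM in Titan mice at 11 weeks. Its levels at 19–21 weeks were 19.2, 2.62, 1.24, 5.80 and 10.4 CPM in control and 1.90, 0.879, 5.35, 9.61 and 9.52 CPM in Titan mice. Older control replicate 3 and older Titan replicates 1 and 2, all with low Arntl, had under 2 CPM of Npas2.

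Clock, the constitutive partner of Arntl, was the steadiest gene, at 129.8 to 181.9 CPM over the 20 mice. Cry1, a repressor whose peak comes late in the cycle, ranged from 7.91 CPM in older Titan replicate 2 to 42.7 CPM in older Titan replicate 5. Per1 and Per2 are period genes that also respond acutely to glucocorticoids and feeding. Per1 was lowest at 1.16 CPM in 11-week-old control replicate 4 and highest at 25.01 CPM in older Titan replicate 2, and Per2 ran from 6.04 CPM in older control replicate 5 to 33.6 CPM in older Titan replicate 1.

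**Figure D1:**
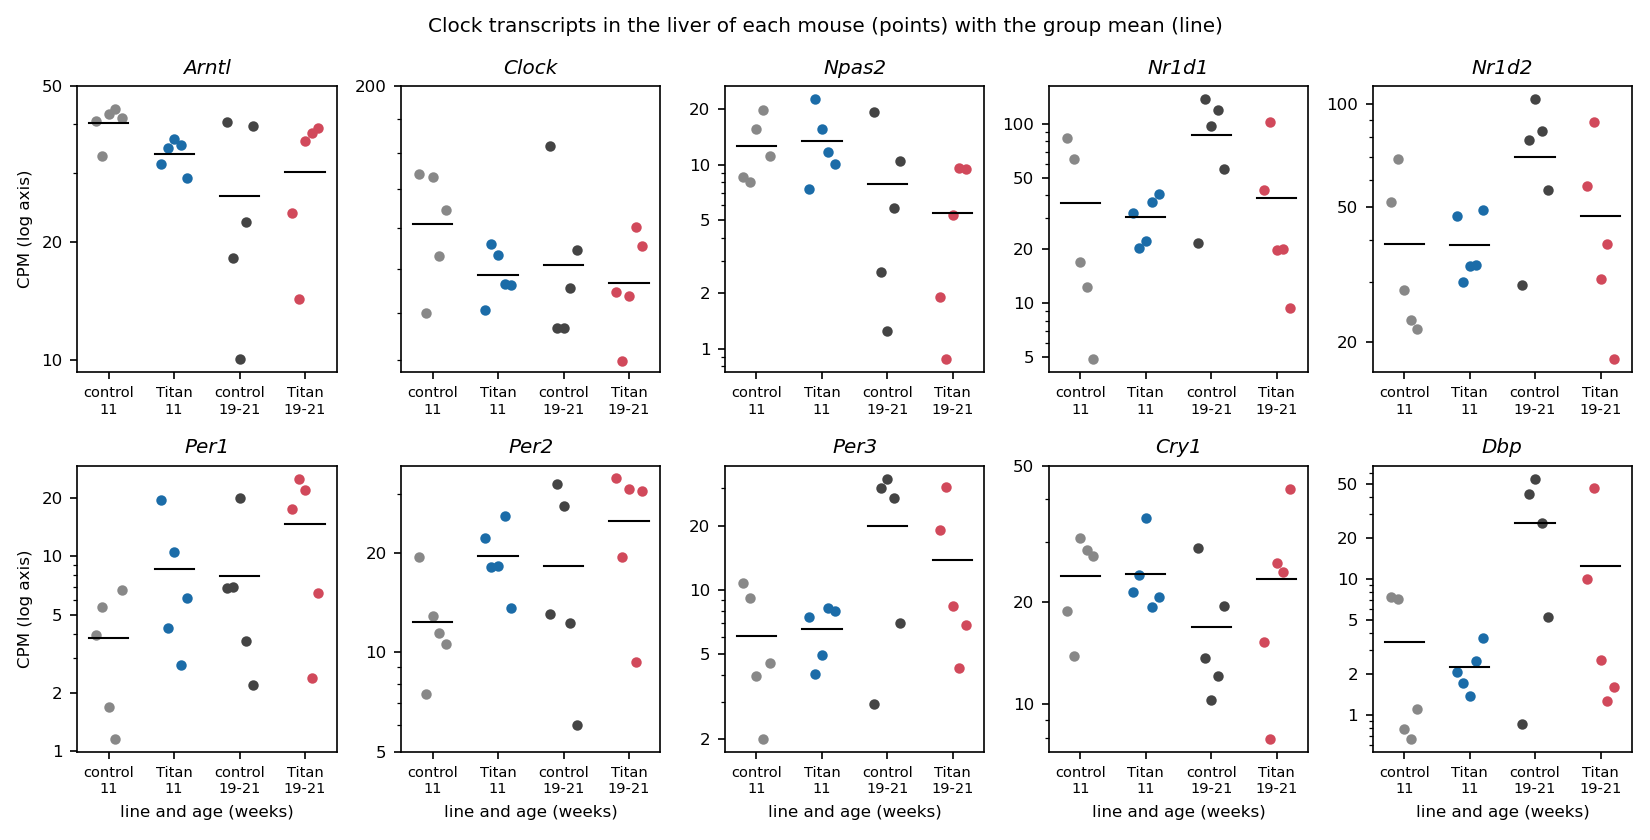
Level of each clock gene in CPM (log axis) in the liver of the 20 mice, by line and age in weeks, with a line at the group mean. Every pair of groups overlapped for every gene; Dbp in older control mice ran from 0.858 to 54.2 CPM, and Clock stayed between 129.8 and 181.9 CPM over all mice.

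The first question was whether the clock genes differed between the lines or between the ages. Group means of Per1 were 8.65 ± 6.70 CPM in Titan and 3.80 ± 2.38 CPM in control mice at 11 weeks (SD, n = 5 each). The fitted log2 fold change was 1.23 ± 0.66 (SE, here and below derived from the F statistic of the test). Per1 had the smallest p-value of that comparison and did not pass the threshold (edgeR quasi-likelihood test, Benjamini-Hochberg adjusted p = 0.24). Per2 had the next smallest p-value, at 19.5 ± 4.58 CPM in Titan and 12.3 ± 4.41 CPM in control mice (log2 fold change 0.66 ± 0.37, adjusted p = 0.27 by edgeR). None of the 10 genes was called at 11 weeks, when 14.9% of all tested genes were. Their median log2 fold change was 0.01, beside -0.02 over all tested genes.

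At 19–21 weeks 0 of 10 clock genes were called between Titan and control mice, against 9.12% of all tested genes. Nr1d1 came closest, at 38.8 ± 37.4 CPM in Titan and 86.5 ± 47.4 CPM in control mice (log2 fold change -1.16 ± 0.65, adjusted p = 0.29 by edgeR). The SE of the 10 fold changes ran from 0.085 for Clock to 0.89 for Dbp on the log2 scale, so that for Dbp a difference of several fold could not be resolved with 5 mice a group.

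Between the ages, Dbp showed the largest fitted differences. Its mean was 2.26 ± 0.88 CPM at 11 weeks and 12.4 ± 19.5 CPM at 19–21 weeks in Titan mice, and 3.41 ± 3.51 and 25.6 ± 22.996 CPM in control mice (SD, n = 5 each), and neither difference passed the threshold. The log2 fold changes were 2.41 ± 1.01 in Titan mice (adjusted p = 0.25 by edgeR) and 3.0 ± 0.98 in control mice (adjusted p = 0.54 by edgeR). Per3 had fold changes of 1.06 ± 0.58 and 1.75 ± 0.58 on the log2 scale, with adjusted p of 0.39 and 0.55 by edgeR. None of the 10 genes was called with age in Titan mice, where 1.25% of all tested genes were, nor in control mice, where 0.0871% were. Before adjustment 2 genes in Titan mice (Dbp and Npas2) and 4 in control mice (Dbp, Per3, Nr1d2 and Arntl) had a p-value under 0.05 by edgeR, beside 15.6% and 6.15% of all tested genes, and DESeq2 likewise gave 2 and 4 such genes and called none.

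Whether the effect of age differed between Titan and control mice was tested as an interaction. None of the 10 genes passed, with the smallest adjusted p at 0.79 for Arntl by edgeR, and 0.00726% of all tested genes did. In no comparison of 2 groups were the mice of 1 group all above those of the other for a clock gene. Of all tested genes 11.9% and 7.63% were separated in this way between the lines at 11 and at 19–21 weeks, and 2.97% and 1.02% between the ages in Titan and in control mice. With DESeq2 as the test, 0 of 10 genes were called in each of the 5 comparisons.

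**Figure D2:**
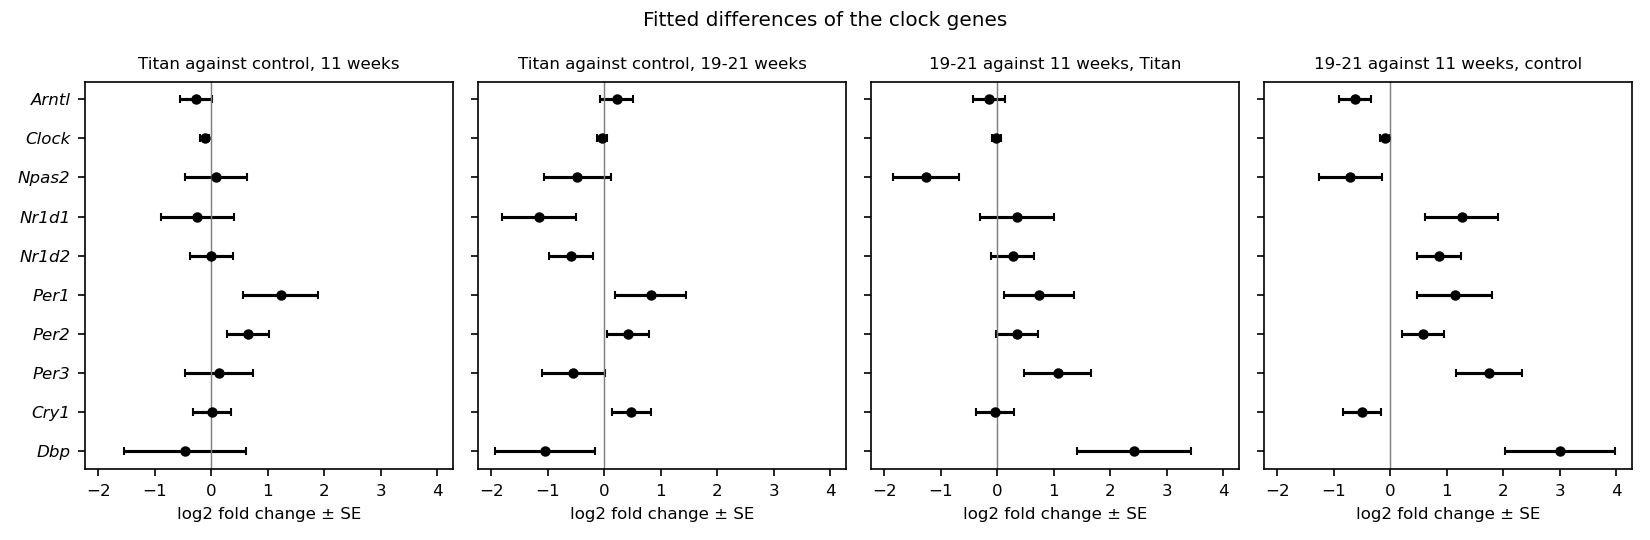
Fitted log2 fold change (points) and its SE (bars) of the 10 clock genes in the 4 comparisons of 2 groups. None passed an adjusted p of 0.05; the bars of Clock span 0.084 to 0.085 to each side, and those of Dbp 0.89 to 1.07.

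The spread among mice of 1 group was the main feature of these genes. The pooled within-group SD of log2 CPM was 1.81 for Dbp, which exceeded 99.8% of all tested genes, and 1.21 for Nr1d1, 1.18 for Per1, 1.12 for Npas2 and 1.09 for Per3, each above 98.7% of tested genes. Nr1d2, Per2, Cry1 and Arntl followed with 0.69, 0.69, 0.62 and 0.53. Clock, at 0.13, lay below the lower quartile of all genes, 0.16, whose median was 0.23. Thus 9 of 10 clock genes varied more among mice than the upper quartile of tested genes, 0.39.

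This spread was not equal in the 4 groups. Titan mice at 11 weeks had the smallest SD of log2 CPM for 8 of the 10 genes, with a median SD of 0.39. The medians were 0.65 in control mice of that age, 1.03 in older control mice and 1.02 in older Titan mice. For Dbp the SD was 0.50 in 11-week-old Titan mice, 1.60 in control mice of the same age, 2.41 in older control mice and 2.11 in older Titan mice. The difference in spread between groups was not tested, and the fits used 1 dispersion for each gene across all groups. The share of all tested genes with their smallest SD in 11-week-old Titan mice was not determined. Most of the clock genes also correlate with each other, as described below, so that the 8 genes are not separate observations.

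Ratios of counts within a library, which do not depend on its size, placed the mice along 1 axis. The log2 ratio of Dbp to Arntl was -2.47, -2.21, -5.74, -6.03 and -5.23 in control and -3.94, -4.33, -4.72, -3.83 and -2.99 in Titan mice at 11 weeks. At 19–21 weeks it was -5.56, 1.21, 2.43, 0.18 and -2.91 in control and -1.25, 1.71, -3.83, -4.91 and -4.59 in Titan mice. Positive ratios thus occurred in 4 mice, all of the older groups. The 5 highest mice were the same 5 for Dbp to Arntl, Nr1d1 to Npas2 and Per3 to Clock, namely older control replicates 2, 3 and 4 and older Titan replicates 1 and 2. Within the older control group the ratio of Nr1d1 to Npas2 ran from 0.18 to 6.30 on the log2 scale, and within 11-week-old Titan mice from -0.16 to 2.11.

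**Figure D3:**
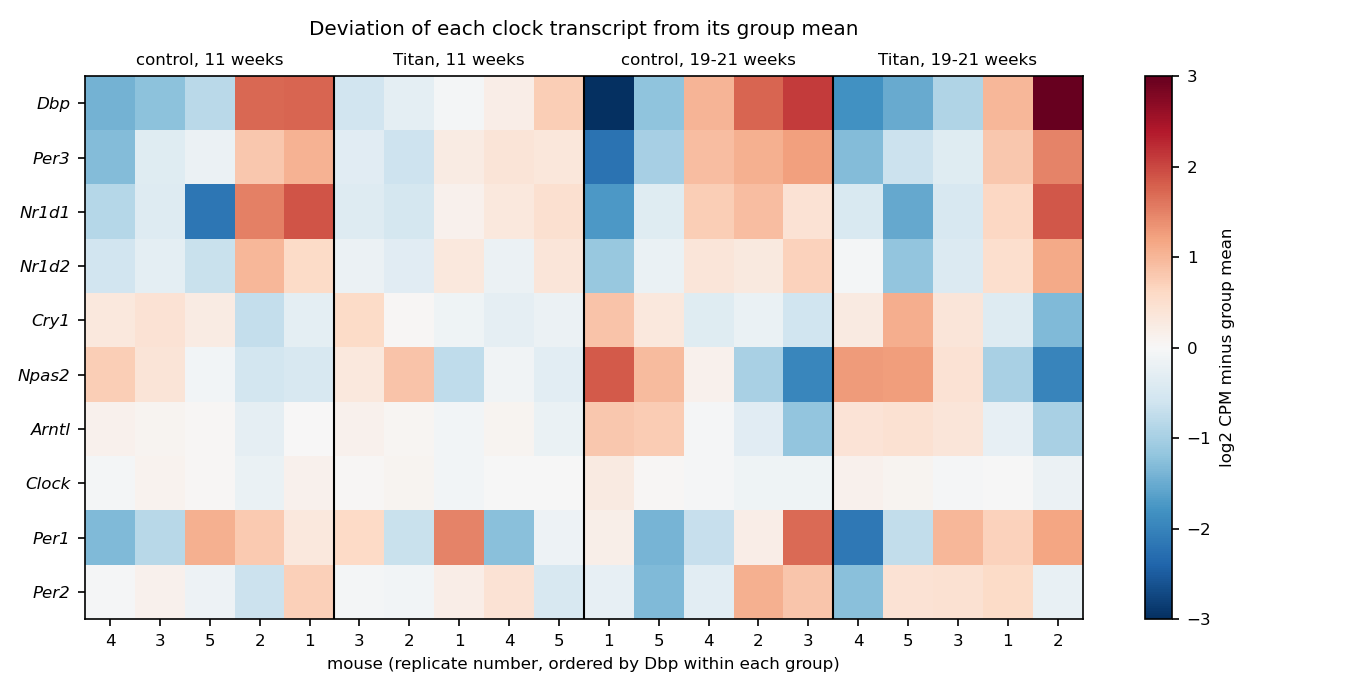
Deviation of each clock gene from its group mean in log2 CPM (colour), with the mice of each group in columns ordered by Dbp and labelled by replicate number. Dbp, Per3, Nr1d1 and Nr1d2 were high in the mice in which Npas2, Cry1 and Arntl were low, with the strongest contrasts in the 2 older groups.

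Deviations from the group means were next correlated over the 20 mice, so that differences between the groups did not enter. Dbp and Per3 had the closest relation (Pearson r = 0.96, Spearman rho = 0.97, permutation p = 1e-05 for each, the smallest that 100000 permutations can give). Nr1d1 correlated with Nr1d2 at r = 0.92 (rho = 0.92) and with Dbp at r = 0.87 (rho = 0.86). On the other arm Arntl correlated with Npas2 at r = 0.93 (rho = 0.93) and with Cry1 at r = 0.81 (rho = 0.86).

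All 16 pairs that join Dbp, Nr1d1, Nr1d2 or Per3 with Arntl, Clock, Npas2 or Cry1 were negative, from r = -0.92 for Nr1d2 and Cry1 to -0.59 for Clock and Nr1d1. All 12 pairs within either set of 4 genes were positive, from 0.74 to 0.96. With Benjamini-Hochberg adjustment over the 45 pairs, these 28 pairs and 2 of the 17 pairs with Per1 or Per2 passed the threshold, namely Per1 with Npas2 (r = -0.67, rho = -0.69, adjusted permutation p = 0.0084) and with Arntl (r = -0.58, rho = -0.62, adjusted permutation p = 0.029). Each of the 30 pairs had the same sign in the control mice, the Titan mice, the younger mice and the older mice taken alone, 10 mice each. These subsets are parts of the mice in which the pairs were called, so this agreement is not separate evidence. Without the 2 mice farthest from the median of the first gene 23 of the 30 passed, so that 7 pairs rest on those mice: Clock with Nr1d1, Nr1d2, Per3, Cry1 and Dbp (r = -0.34, -0.46, -0.53, 0.63 and -0.59 without them, adjusted permutation p = 0.31, 0.21, 0.11, 0.058 and 0.077) and Per1 with Arntl (r = -0.35, adjusted permutation p = 0.21) and Npas2 (r = -0.53, adjusted permutation p = 0.069). With older control replicate 1 left out, Clock with Nr1d1, Nr1d2 and Per3 did not pass (adjusted permutation p = 0.16, 0.053 and 0.053), and Per1 with Arntl did not pass without older control replicate 3 (adjusted permutation p = 0.14). Removal of any 1 of 6 mice ended the call of Clock with Nr1d1, and of any 1 of 3 mice that of Per1 with Arntl. By Spearman rho Clock with Nr1d1 and with Nr1d2 did not pass either (adjusted permutation p = 0.082 and 0.053). In the 11-week-old mice alone 5 of the 45 pairs passed. As a description, r was at least 0.8 in size for 18 of 45 pairs of clock genes (40%) and for 0.0491% of all pairs of tested genes.

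Per2 passed with no other clock gene; its closest relations were with Per1 (r = 0.46, rho = 0.35, adjusted permutation p = 0.097) and Per3 (r = 0.46, rho = 0.41, adjusted permutation p = 0.17). Outside the 10 genes, those most like Per2 included Ints2 (r = 0.92), a subunit of the Integrator complex, and Preb (r = 0.85) and BC024978 (r = 0.84), while Lamb1 had the lowest r, -0.86. The genes most like Arntl included Nfil3, Lrfn3, Chka and Sox9, at r = 0.85 each, and those most opposed to it Tef and Bhlhe41, at -0.90 each, followed by Jade1, Slc5a6 and Narf. Tef (r = 0.95) and Bhlhe41 (r = 0.87) led the genes most like Dbp, followed by Tns2, Jade1 and Ppara, and Lonrf3 (r = -0.91), Sik1, Ppard, Ahctf1 and Chka were the most opposed to Dbp. These values rank genes over 20 mice and carry no test.

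**Figure D4:**
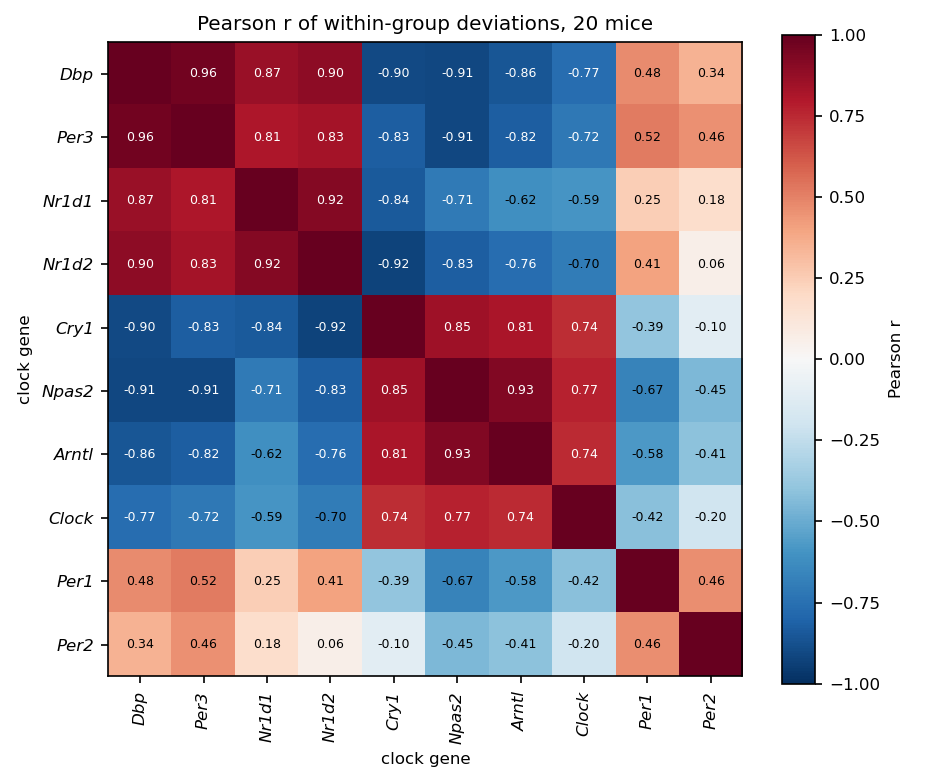
Pearson r between the within-group deviations of the 10 clock genes over 20 mice (colour and printed value). The first 4 genes correlate positively with each other at 0.81 to 0.96 and negatively with the next 4 at -0.59 to -0.92, and Per2 passed the threshold with no gene.

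Since Dbp had the widest range, a regression of every other gene on the Dbp level, with the 4 groups as covariates, was added after the values had been seen. Of 13782 genes 31 changed with Dbp within groups (0.225%), 14 in the same direction and 17 in the opposite one, and 6 of them were clock genes. Per3 rose by 0.58 ± 0.040 on the log2 scale for each log2 unit of Dbp (adjusted p = 6.3e-08 by edgeR), Nr1d1 by 0.57 ± 0.069 and Nr1d2 by 0.34 ± 0.039. Npas2 fell by 0.54 on the log2 scale for each log2 unit (SE 0.065), Cry1 by 0.31 (SE 0.038) and Arntl by 0.24 (SE 0.037, adjusted p = 0.0021 by edgeR). Adjusted p was 0.00015 for Nr1d2, 0.00017 for Npas2 and Nr1d1 and 0.00021 for Cry1. Clock had a slope of -0.05 ± 0.014 (adjusted p = 0.23), Per1 0.27 ± 0.13 (adjusted p = 0.81) and Per2 0.14 ± 0.081 (adjusted p = 0.89), none past the threshold of the edgeR fit.

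The slopes of the 6 genes kept their signs in each line and at each age taken alone. Each subset is a part of the mice in which these genes were called, so this agreement is not separate evidence. Per3 had slopes of 0.61 in control and 0.52 in Titan mice, and Npas2 -0.48 and -0.74. For Arntl the slope was -0.08 in the younger and -0.30 in the older mice, for Nr1d1 0.85 and 0.49, and these differences between subsets were not tested. The number of genes called was 5 in control mice, 6 in Titan mice, 0 in 11-week-old mice (858 with an unadjusted p under 0.05 by edgeR) and 11 in 19–21-week-old mice. Leaving out 1 mouse at a time gave 18 to 37 genes, with 18 without older Titan replicate 2 and 19 without older control replicate 1, and all 6 clock genes passed in each of these fits.

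Markers of other cell types and the depth of the library were set against the same axis. Among 13 measures compared with the deviation of Dbp over the 20 mice, among them reads on genes, the share of reads outside genes and the summed markers of 9 cell types, none passed a Benjamini-Hochberg adjustment. Over all 20 mice the closest were the stellate cell markers Lrat, Reln, Dcn, Ecm1 and Hand2 (r = -0.55, permutation p = 0.040, rho = -0.53, permutation p = 0.031, adjusted p = 0.44, r = -0.45 without the 2 farthest mice) and the hepatocyte markers (r = -0.50, permutation p = 0.068, rho = -0.42, permutation p = 0.11, adjusted p = 0.44, r = -0.22 without the 2 farthest mice). For reads on genes, the depth of the library, r was -0.21 (permutation p = 0.43, rho = -0.35, permutation p = 0.16, adjusted p = 0.62) and -0.53 without the 2 farthest mice, the largest size among the 13 measures in that setting. Sox9, listed as a cholangiocyte marker, was the only marker gene called with Dbp, with a slope of -0.33 ± 0.052 (adjusted p = 0.0039 by edgeR); the other cholangiocyte markers tested, Krt19, Krt7 and Spp1, were not called, and without older control replicate 1 neither was Sox9 (adjusted p = 0.057 by edgeR).

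Further genes of the loop followed Dbp in part. Of 7 further loop genes tested 1 was called, Bhlhe41 (DEC2), a repressor that binds E-boxes, with a slope of 0.50 ± 0.069 (adjusted p = 0.00086 by edgeR). It was at 0.73 to 3.08 CPM in 11-week-old mice and reached 14.0 CPM in older control replicate 3. Cry2, a paralog of Cry1, missed the threshold (slope 0.10 ± 0.021, adjusted p = 0.053 by edgeR). Ciart, a repressor of the CLOCK and ARNTL pair, failed the filter on low counts, and its 3 highest values, 4.51, 3.02 and 2.05 CPM, were in older control replicates 2 and 3 and older Titan replicate 2. Among the D-box factors Tef, Hlf and Nfil3 only Tef, a PAR bZIP factor like Dbp, was called (slope 0.29 ± 0.023, adjusted p = 6.6e-07 by edgeR). Nfil3, which represses D-boxes, had a slope of -0.20 ± 0.045 (adjusted p = 0.074 by edgeR).

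None of the 8 kinases and ubiquitin ligases that act on clock proteins, the 10 rhythmic output genes of liver, the 12 glucocorticoid, feeding and fasting genes or the 6 temperature responsive genes was called with Dbp by edgeR. At an unadjusted p under 0.05 there were 0, 1, 4 and 1 of them, among them Usp2, Sgk1, Pdk4, Pck1 and Hspa8, and 5.97% of all tested genes lay under it. A further 22 genes outside all lists were called, 9 in the direction of Dbp and 13 against it. They include Ppara (slope 0.10 ± 0.018) and Ppard (slope -0.39 ± 0.054), nuclear receptors for fatty acids, Sik1 (slope -0.22 ± 0.031), a kinase of the AMPK family, and Chka (slope -0.22 ± 0.035), the first enzyme of phosphatidylcholine synthesis from choline. Of these 4 the calls of Ppard and Sik1 held without any 1 mouse, and without older Titan replicate 2 Ppara and Chka had adjusted p of 0.11 and 0.0502 by edgeR.

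**Figure D5:**
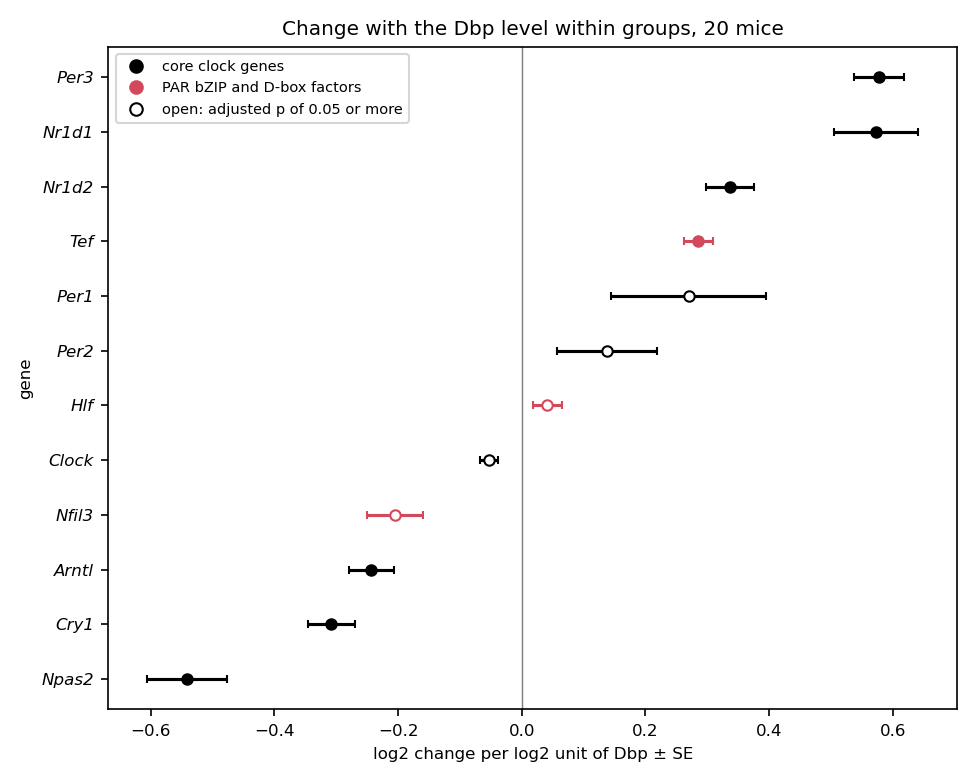
Log2 change for each log2 unit of Dbp (points) and SE (bars) within groups over 20 mice, for the other 9 clock genes and 3 D-box factors. Filled points passed an adjusted p of 0.05 over all tested genes, from Per3 at 0.58 to Npas2 at -0.54.

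Some genes around the loop were called between the lines. Arntl2, a paralog of Arntl, was higher in Titan mice at both ages, with 9 to 31 reads in the 11-week-old and 5 to 16 reads in the older Titan mice and 0 to 3 reads in each control mouse. The log2 fold change was 3.71 ± 0.48 at 11 weeks (adjusted p = 2.5e-05 by edgeR) and 3.45 ± 0.50 at 19–21 weeks (adjusted p = 0.00021 by edgeR). Its level in Titan mice, 1.16 and 1.17 CPM on average, was low. Arntl2 did not pass the filter on low counts in the control mice taken alone. It was tested only through the Titan mice, in which it is high, so its calls and fold changes depend on that selection. Of the 7 further loop genes tested Arntl2 alone was called at 11 weeks, when 14.9% of all tested genes were. At 19–21 weeks, when 9.12% were, Timeless was called as well and fell by 0.82 on the log2 scale (SE 0.25, adjusted p = 0.044 by edgeR). The difference of Timeless turned to 0.10 when reads of both strands were counted. None was called between the ages, where 1.25% of all tested genes in Titan and 0.0871% in control mice were. There the smallest p was that of Bhlhe41 in control mice (log2 fold change 1.56 ± 0.56, adjusted p = 0.60 by edgeR).

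Of the 3 D-box factors none was called in any comparison. Of all tested genes 14.9% and 9.12% were called between the lines at 11 and at 19–21 weeks. With age 1.25% were called in Titan and 0.0871% in control mice, and 0.00726% for the interaction. No call among 3 genes is near these shares. The smallest p-values were those of Tef with age in control mice (log2 fold change 0.87 ± 0.31, adjusted p = 0.58 by edgeR) and in Titan mice (0.69 ± 0.31, adjusted p = 0.28), and of Hlf between the lines at 11 weeks (0.27 ± 0.12, adjusted p = 0.13). Among the 8 kinases and ubiquitin ligases Gsk3b, a kinase that phosphorylates several clock proteins, was higher in Titan mice at both ages, by 0.27 ± 0.063 at 11 weeks (adjusted p = 0.0055 by edgeR) and 0.21 ± 0.063 at 19–21 weeks (adjusted p = 0.044). No gene of this list was called between the ages.

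Of the 10 rhythmic output genes of liver 4 were called between the lines at 11 weeks and 3 at 19–21 weeks, beside 14.9% and 9.12% of all tested genes. None was called between the ages, beside 1.25% of all tested genes in Titan and 0.0871% in control mice. At 11 weeks Nampt, of NAD synthesis (log2 fold change 0.61 ± 0.14, adjusted p = 0.0048 by edgeR), and the deubiquitinase Usp2 (1.08 ± 0.35, adjusted p = 0.043) were higher in Titan mice. The fatty acid elongase Elovl3 (-2.08 ± 0.45, adjusted p = 0.0029 by edgeR) and Cyp7a1, the rate-limiting enzyme of bile acid synthesis (-1.29 ± 0.30, adjusted p = 0.0057), were lower. At 19–21 weeks Usp2 (1.68 ± 0.35, adjusted p = 0.0039 by edgeR) and the cell cycle kinase Wee1 (0.80 ± 0.22, adjusted p = 0.027) were higher and Cyp2a5 (-2.99 ± 0.56, adjusted p = 0.0019) lower. The 10 core genes passed in neither comparison, and their differences were not tested against those of the output genes. At 19–21 weeks the log2 fold change of Nr1d1, -1.16 ± 0.65, was larger in size than that of Wee1.

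Among the 12 glucocorticoid, feeding and fasting genes 3 rose in Titan mice at 11 weeks and 2 at 19–21 weeks, and none fell, in comparisons that called 14.9% and 9.12% of all tested genes. The hormone gene Fgf21 was higher at both ages (log2 fold change 1.79 ± 0.48, adjusted p = 0.014, and 3.09 ± 0.55, adjusted p = 0.0011, by edgeR). Pdk4, an inhibitor of pyruvate dehydrogenase (1.44 ± 0.46, adjusted p = 0.038), and Sgk1 (0.96 ± 0.27, adjusted p = 0.017) were higher at 11 weeks, and Fkbp5, a target of the glucocorticoid receptor, at 19–21 weeks (1.09 ± 0.22, adjusted p = 0.0028 by edgeR). Of the 6 temperature responsive genes Hspa8, a chaperone, was lower in Titan mice at 11 weeks (-1.63 ± 0.54, adjusted p = 0.048 by edgeR), and Hspa1a at 19–21 weeks (2.03 ± 0.66, adjusted p = 0.057) and Cirbp at 11 weeks (-0.39 ± 0.17, adjusted p = 0.13) had the next smallest p-values. Hspa8 itself is expressed in all cells and its groups overlapped.

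Left out 1 at a time, no mouse ended the calls between the lines of Arntl2, Fgf21, Nampt, Elovl3, Cyp7a1, Cyp2a5 and Fkbp5, of Gsk3b at 11 weeks or of Usp2 at 19–21 weeks. For Arntl2 the limit of the filter given above applies here as well. The call of Sgk1 was lost without 11-week-old Titan replicate 2 (adjusted p = 0.063 by edgeR). Those of Wee1, Pdk4, Timeless, Usp2 at 11 weeks, Gsk3b at 19–21 weeks and Hspa8 were lost on removal of any 1 of 5, 8, 10, 10, 12 and 13 mice in that order. The highest adjusted p by edgeR came without older Titan replicate 1 for Wee1 (0.081), replicate 2 for Gsk3b (0.10) and replicate 3 for Timeless (0.11), without 11-week-old Titan replicate 1 for Usp2 (0.11) and without 11-week-old control replicate 1 for Pdk4 (0.077) and Hspa8 (0.21).

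Some cell type markers were also called between the lines, in comparisons that called 14.9% of all tested genes at 11 weeks and 9.12% at 19–21 weeks. Of 5 endothelial markers Kdr was called lower in Titan mice at 11 weeks and Lyve1 and Oit3 at 19–21 weeks. Of 5 hepatocyte markers Apoa1 and Cps1 were called lower at 11 weeks. The sum of these 5 had a median of 87443 CPM in Titan and 81511 CPM in control mice of that age. Cd3e, of T cells, was higher at both ages. It was the only 1 of 5 T, B and NK cell markers to pass the filter on low counts, and it did not pass in the control mice taken alone. The part of these markers in the results for the clock genes was not tested.

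With the Dbp level as a covariate, an alternative chosen after seeing the data, 1 clock gene was called, Npas2, which fell by 1.08 on the log2 scale in Titan against control mice at 19–21 weeks (SE 0.32, adjusted p = 0.041 by edgeR). That fit called 7.86% of all tested genes in this comparison, so that 1 of 10 clock genes is near the background. Without the covariate its log2 fold change was -0.47 ± 0.60 (adjusted p = 0.67 by edgeR), and adjusted p ran from 0.44 to 0.88 over the other alternatives.

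The strand of the counts mattered most for Dbp, Per2 and Nr1d1. Nr1d1 (chr11:98767932-98775333, minus strand) overlaps Thra on the opposite strand over 1075 bases of gene span, and Dbp (chr7:45705088-45710203, plus strand) overlaps Sphk2 on the opposite strand over 737 bases. Counting both strands together, which drops reads that 2 genes share, left 45.5% to 100% of the reads of Dbp and 88.1% to 95.5% of those of Nr1d1, and for Per2 it gave 103.1% to 134.7% of the reads on its own strand. Per3 lies inside Camta1 on the same strand.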

How the data were processed

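RNA from the liver of 20 male mice, 5 in each of 4 groups, was sequenced from strand-specific libraries. Per the labels, the authors aligned the reads with STAR (2.5.3a) to GRCm38, and the deposited values are raw counts of reads per gene, not normalized. The column for the strand the library keeps was used here, with GENCODE M21 symbols for 55480 of 55573 identifiers. Y-linked genes (1562) and genes for histones (108) were excluded. Counts were tested in 1 fit of the 4 groups with the quasi-likelihood test of edgeR (4.0.16, TMM, filterByExpr, two-sided) and Benjamini-Hochberg adjustment over 13783 genes at a threshold of 0.05. DESeq2 (1.42.0) and the other alternatives are in the closing section. The scripts were tested on simulated data. Correlations used deviations of log2 CPM (prior count 2) from group means with a two-sided permutation within groups (100000). The regression on Dbp used the same edgeR model with the log2 CPM of Dbp added, which itself carries counting error. The edgeR test returns no SE. The SE given with its fold changes and slopes is the size of the estimate divided by the square root of the F statistic.

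The 10 clock genes are all named, together with role lists, the called genes and the 3 smallest p-values of each list, and the 5 genes most and least like Arntl, Dbp and Per2; some genes that this rule names are not reported here. The members and lists were chosen with earlier results of these data known. Mice with the same replicate number did not deviate together (30 pairs, r from -0.14 to 0.18, median 0.00), so the number was not used as a block in the fit reported. The labels call the 5 samples of a group biological replicates. Counting intervals were not used, since the spread among mice enters each test.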

Additional observations from a re-analysis of the deposited data

Results flagged for a closer look

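Each of the 10 clock genes was examined in each of the 4 groups for a mouse that stands apart from the other 4, with Dixon's ratio of the gap to the whole range. Of these 40 groups 4 held such a mouse, and for independent, normally distributed values chance gives about 1 in 20. The ratio was taken on CPM, which is skewed, and in correlated genes of the same mice, so that this rate is only a rough guide. Dbp in Titan replicate 2 at 19–21 weeks was at 46.8 CPM, with the next mouse at 9.92. Per1 in control replicate 3 at 19–21 weeks was at 19.96 CPM, with the next at 6.95. Arntl in control replicate 2 at 11 weeks was at 33.2 CPM and the next lowest at 40.7. Cry1 in Titan replicate 3 at 11 weeks was at 35.1 CPM, with the next at 23.9.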

How the results depend on the processing

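No clock gene was called in any of the 5 comparisons under DESeq2, RLE size factors, counts over both strands, the replicate block, a fit of only the groups compared, the excluded genes kept, a minimum of 10 counts in each mouse, no minimum at all, or without any 1 of the 20 mice. With the Dbp level as a covariate 1 gene was called, Npas2 between the lines at 19–21 weeks. Among the clock genes, sign changes occurred in fold changes that passed no threshold, and their cause was not tested. With the Dbp level as a covariate the log2 fold changes whose sign turned, leaving out Dbp, which is then its own covariate, were between the lines at 11 weeks 0.13 for Nr1d1, between the lines at 19–21 weeks -0.070 for Arntl and 0.36 for Per3, with age in Titan mice 0.044 for Arntl, 0.040 for Clock, -0.69 for Nr1d1, -0.25 for Nr1d2 and 0.16 for Cry1, with age in control mice 0.034 for Clock, 0.23 for Npas2, -0.00089 for Per3 and 0.23 for Cry1 and for the interaction of line and age 0.042 for Per2, 0.11 for Per3 and -0.070 for Cry1. With the replicate number as a block they were between the lines at 11 weeks 0.29 for Nr1d1 and 0.044 for Dbp and with age in Titan mice -0.18 for Nr1d1, and the block changed no call of a clock gene between groups. Of the other genes described, it ended the calls of Gsk3b (adjusted p = 0.060) and Timeless (0.051) at 19–21 weeks, of Hspa8 at 11 weeks (0.090) and of Sox9 (0.057), Chka (0.074) and Ppara (0.11) with Dbp, all by edgeR. With 1 mouse left out at a time, the fold changes of clock genes whose sign turned had these ranges. Between the lines at 11 weeks they were, for Npas2 from -0.19 to 0.30, Nr1d1 from -0.53 to 0.33, Nr1d2 from -0.15 to 0.31, Per3 from -0.093 to 0.44, Cry1 from -0.15 to 0.12 and Dbp from -0.76 to 0.052. Between the lines at 19–21 weeks they were, for Arntl from -0.0017 to 0.43, Clock from -0.076 to 0.034 and Npas2 from -0.78 to 0.20. With age in Titan mice they were, for Arntl from -0.25 to 0.038, Clock from -0.052 to 0.023, Nr1d1 from -0.43 to 0.61, Nr1d2 from -0.11 to 0.48 and Cry1 from -0.39 to 0.18. For the interaction of line and age they were, for Npas2 from -0.86 to 0.12, Per1 from -0.74 to 0.32 and Per2 from -0.46 to 0.057. Timeless, which was called between the lines at 19–21 weeks, turned to 0.10 with counts over both strands. In a fit of only the groups compared, the calls of Gsk3b (adjusted p = 0.11), Wee1 (0.062) and Timeless (0.059) at 19–21 weeks and of Hspa8 at 11 weeks (0.051) were lost, and with no minimum on counts those of Gsk3b (0.26) and Timeless (0.097), all by edgeR.

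Of the 45 pairs 30 passed, 28 to 31 with 1 mouse left out, and 5 in the 11-week-old mice alone. The genes that changed with Dbp numbered 31, and 18 to 37 with 1 mouse left out. They numbered 5 in control mice, 6 in Titan mice, 0 in 11-week-old mice, 11 in 19–21-week-old mice and 17 with the replicate block, with the other clock genes among them numbering 3 in control, 3 in Titan and 0 in 11-week-old mice. Each of these subsets holds 10 mice. Mice of the same replicate number were not closest to each other: 3 of 20 correlated best with their own number. The number of clock genes above the upper quartile of spread was 9 under each alternative run, and the 5 highest mice of the 3 ratios had 4 or 5 mice in common with 1 mouse left out. The counts of Dbp, as low as 10 reads, limit the precision of its values in the lowest mice.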
